A study of Mus musculus with 4 samples.

Results

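The 9 genes described here, Pax3, Pax6, Sox1, Sox3, Sox11, Nes, Tubb3, Neurod1 and Pou3f2, are used as markers of the neural and ectoderm lineage, and the rule that chose them uses their names and none of their values. Of the 9, 8 were matched to a row of the count table of 37620 genes, and Sox1 could not be matched to a row by the annotation used here and was not analysed. Among the 8, Tubb3, Nes, Sox3, Sox11, Neurod1 and Pax6 passed the filter on low counts and were tested among 16264 genes, while Pou3f2 and Pax3 were too low to test. RNA was sequenced from mouse embryonic stem cells (mESCs) with 2 libraries of genotype WT (WT_CTCF) and 2 of genotype MUT (MUT_CTCF). All 4 libraries came from CTCF-EGFP-AID mESCs, in which auxin degrades the tagged endogenous CTCF, and a vector supplied either WT CTCF or CTCF with the threonine T668 changed to alanine, which cannot carry O-GlcNAc at that site. Each line was a picked clone chosen for an exogenous CTCF level close to that of the endogenous protein, and both were grown in serum with LIF, so clone and genotype cannot be told apart. The comparison addresses whether these lineage genes differed in RNA level between the lines under conditions that maintain stem cells. Auxin was applied for 2 days when the lines were made, and its duration for the RNA libraries themselves was not given in the sources used here.

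The ectoderm of the embryo gives rise to the nervous system, the epidermis and, at their border, the neural crest. SOXB1 proteins (SOX1, SOX2 and SOX3) maintain neural progenitors, PAX3 and PAX6 pattern the neural tube and the eye, nestin fills the progenitor cytoplasm, and SOXC proteins, POU3F2 and NEUROD1 accompany exit from the cell cycle and neuronal differentiation, when class III beta-tubulin becomes prominent. SOX2 also acts in the pluripotency network, and mESCs in culture can transcribe some lineage genes at low level. In bulk RNA, fewer cells of a type and less RNA per cell cannot be told apart.

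Total counts ran from 40524694 to 40977464, the 3-count floor was 0.0732 to 0.0740 CPM (counts scaled to library size, the usual CPM), and the replicate libraries of each line correlated at r = 0.989 across genes on the log2 scale. Ctcf itself, whose counts were 18273 and 18625 in WT_CTCF and 18954 and 19233 in MUT_CTCF, cannot check the genotype because the change is a point mutation. All 12 pluripotent cell markers were tested, and their high summed level fits the label of stem cells in all 4 libraries. The sum was 4086 and 4001 CPM per kilobase of exon in WT_CTCF and lower, 3988 and 3967, in MUT_CTCF. Of these 12, 1 was called higher, Sox2, and 1 lower, Dppa5a, by edgeR's quasi-likelihood test at an adjusted p under 0.05. Of all tested genes, 3.17% were called in either direction. At an unadjusted p under 0.05 in that test, 2 of the 12 were higher and 4 lower, against 7.61% and 7.65% of all tested genes. The markers of differentiated neurons summed to 115.9 to 122.3 on that scale, nearly all of it Stmn2, with Dcx at 0 counts in every library. The neural progenitor markers summed to 10.6 in both WT_CTCF libraries, and in MUT_CTCF to 11.4 and 11.7, nearly all of it Nes, with Fabp7 at 0. Fibroblast markers summed to 14.9 and 15.5 in WT_CTCF and to 16.4 and 18.6 in MUT_CTCF, with Lum and S100a4 at 0, and their part in the results was not tested.

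The replicates of MUT_CTCF stood apart from each other in low neuronal and glial genes, a pattern noticed after the counts were seen. Snap25, a synaptic vesicle fusion protein, had 71 and 75 counts in WT_CTCF, 179 in MUT_CTCF replicate 1 and 0 in MUT_CTCF replicate 2. Among genes with a mean of 10 to 200 counts, MUT_CTCF replicate 1 was at least 2 times MUT_CTCF replicate 2 in 5 of 5 markers of differentiated neurons, 6 of 9 neuronal cytoskeleton, adhesion and synapse genes and 3 of 4 glial genes. The same held for 6.91% of the 5641 tested genes at these counts. The reverse held for 5.5% of them and for none of these neuronal and glial genes. In the other lists examined, replicate 1 was at least 2 times replicate 2 in 2 of 11 neural progenitor regulators. It was so in 0 of 8 surface ectoderm and neural crest genes, and the reverse held for none in either list. Values with each library left out are therefore given for the low members that were tested.

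Tubb3 fell and no other member passed the test. At an adjusted p under 0.05 by edgeR's quasi-likelihood test, 0 of the 6 tested members were higher and 1 was lower in MUT_CTCF, against 1.56% and 1.61% of all tested genes, or 3.17% in either direction. DESeq2 and edgeR's exact test gave the same counts of 0 and 1, and an unadjusted p under 0.05 gave 1 higher, Sox3, and 1 lower, Tubb3, where 7.61% of all tested genes were higher and 7.65% lower at that threshold. The study's own rule asks for an unadjusted p under 0.05 together with a change of more than 2-fold, and by it 0 members were higher and 0 lower, against 0.947% and 0.357% of all tested genes, or 1.3% in either direction. Of the 6 tested members, Nes and Sox3 had both MUT_CTCF libraries above both WT_CTCF libraries and Tubb3 had both below, where 22.3% of all tested genes had each of these orders. The median log2 fold change of the tested members was -0.04, and that of all tested genes was 0.0034. The members' median was -0.11 or -0.12 with replicate 1 of WT_CTCF or of MUT_CTCF left out, and 0.05 or 0.04 with replicate 2 of WT_CTCF or of MUT_CTCF left out. Across all genes 253 were higher and 262 lower, and scaling by library size only gave 260 and 152.

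**Figure D1:**
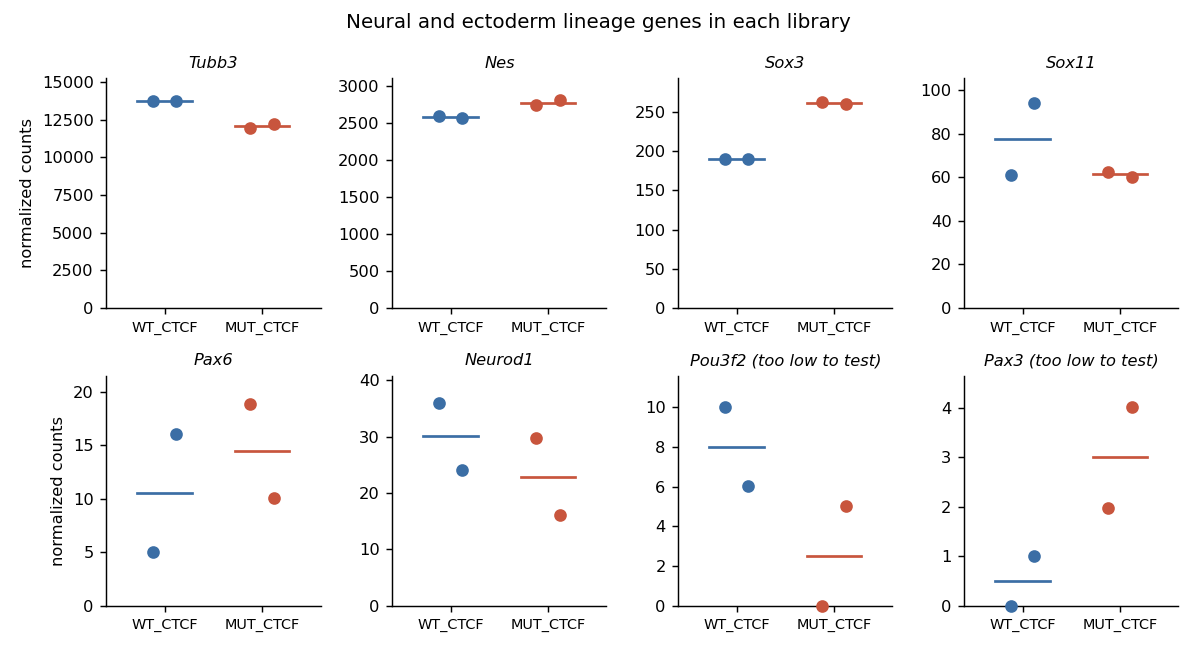
Normalized counts (vertical axes, linear from 0, a scale per gene) of the 8 matched genes in 2 WT_CTCF libraries (blue) and 2 MUT_CTCF libraries (red); points are libraries, replicate 1 on the left, and lines are group means. The groups do not overlap in Tubb3, Nes, Sox3, Pou3f2 and Pax3, and the last 2 rest on 0 to 10 counts per library.

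Tubb3 (ENSMUSG00000062380, mm9 chromosome 8, 125935324 to 125945915, plus strand, 4 exon blocks) encodes class III beta-tubulin, a microtubule subunit characteristic of neurons. Its counts were 13703 and 13741 in WT_CTCF and 12061 and 12149 in MUT_CTCF. Both MUT_CTCF libraries lay below both WT_CTCF libraries, and each pair of replicates was close. The mean fell from 13749 ± 34.3 to 12082 ± 177 normalized counts (SD, n = 2 each), which is -12.1% or a log2 fold change of -0.19 (SE 0.031), with an adjusted p of 5.01e-05 by edgeR's quasi-likelihood test. The log2 ratio of any MUT_CTCF library to any WT_CTCF library lay between -0.20 and -0.17. The call was lost when either MUT_CTCF library was dropped, where few genes of the whole table were called, and kept when either WT_CTCF library was. Dropping MUT_CTCF replicate 1 or 2 gave a log2 fold change of -0.17 or -0.20. Dropping WT_CTCF replicate 1 or 2 gave -0.19 or -0.18. Without a filter on low counts its adjusted p was 0.0701 by edgeR's quasi-likelihood test.

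Nes (ENSMUSG00000004891, mm9 chromosome 3, 87775000 to 87784373, plus strand) encodes nestin, an intermediate filament protein of neural progenitors. Its counts were 2587 and 2553 in WT_CTCF and 2765 and 2791 in MUT_CTCF. The MUT_CTCF libraries were both above the WT_CTCF libraries, without overlap. The means were 2575 ± 22.7 and 2773 ± 44.7 normalized counts (SD, n = 2 each), and the log2 fold change of 0.11 (SE 0.055) did not pass edgeR's quasi-likelihood test (adjusted p = 0.351).

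The 250 bases before the transcription start of Tubb3 and of Nes are shown because these were the most abundant members, and because members of the SOX family are in the same set. The sequences are from RefSeq on GRCm38.p6, a later build than the mm9 of the counts, at chr8:123411303-123411552 and chr3:87970843-87971092, both on the plus strand and written 5′ to 3′. Capitals mark ACAAT or its reverse complement ATTGT, letters of the core bound by SOX proteins.
Tubb3: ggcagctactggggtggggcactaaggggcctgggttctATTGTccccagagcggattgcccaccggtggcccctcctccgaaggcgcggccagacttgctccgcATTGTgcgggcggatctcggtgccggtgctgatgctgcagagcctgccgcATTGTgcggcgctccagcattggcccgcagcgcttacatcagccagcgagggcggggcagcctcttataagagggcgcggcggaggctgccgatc
Nes: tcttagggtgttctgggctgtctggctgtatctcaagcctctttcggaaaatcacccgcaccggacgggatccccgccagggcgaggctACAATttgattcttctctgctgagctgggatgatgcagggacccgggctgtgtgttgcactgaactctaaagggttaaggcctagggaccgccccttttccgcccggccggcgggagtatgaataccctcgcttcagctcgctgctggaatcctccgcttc
The Tubb3 window held 3 matches and the Nes window 1, and 27.7% of 32851 promoter windows of this length held at least 1. CCCTC, the letters in the name of CTCF, was found on either strand 3 times before Tubb3 and 1 time before Nes, and in 60.5% of all windows. GC content was 68.0% before Tubb3 and 58.8% before Nes, where the median window had 52.4%, and CpG dinucleotides numbered 21 and 15, where the median was 6. Of the 9 genes, 7 had an entry in this table, with 8 windows in all, and Pax3 and Sox3 were not among them. Among the other windows, ACAAT or ATTGT was found 1 time in the first Pax6 window and 0 times in the second. It was also absent before Neurod1, Pou3f2, Sox1 and Sox11. Pou3f2 held 6 matches to CCCTC, and Neurod1 and Sox1 held 3 each. The windows of the 2 Pax6 entries held 2 and 0 matches to CCCTC, and Sox11 held 0. The E-box CANNTG, searched on both strands and matching bHLH proteins such as NEUROD1, was present 2 times before Sox11, 1 time before Neurod1 and 1 time in the second Pax6 window, and in 66.2% of all windows. A match is a run of letters and not a measured binding site.

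Sox3 (ENSMUSG00000045179, mm9 chromosome X, 58144545 to 58146605, minus strand, 1 exon) encodes a SOXB1 transcription factor of neural progenitors. It had 190 counts in each WT_CTCF library and 265 and 259 in the MUT_CTCF libraries. The groups were well apart, with no overlap. The means were 190.4 ± 0.10 and 261.5 ± 1.75 normalized counts (SD, n = 2 each), a log2 fold change of 0.46 (SE 0.169), which missed the threshold over all genes in edgeR's quasi-likelihood test (adjusted p = 0.139, and 0.00881 before adjustment). The value moved between 0.45 and 0.47 over the 11 alternatives, with adjusted p of 0.117 to 0.473. The spread within each pair was smaller than counting error alone would give at this depth, and the SE comes from the spread shared across genes.

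Sox11 (ENSMUSG00000063632, mm9 chromosome 12, 28025562 to 28027574, minus strand, 1 exon) encodes a SOXC transcription factor of newly formed neurons. Its counts were 61 and 94 in WT_CTCF and 63 and 60 in MUT_CTCF. WT_CTCF replicate 2 was alone at the high end and the other 3 libraries lay within a few counts of each other. The log2 fold change was -0.34 (SE 0.326, adjusted p = 0.700 by edgeR's quasi-likelihood test), and leaving out WT_CTCF replicate 2 turned it to 0.0065, whereas dropping WT_CTCF replicate 1 gave -0.62. Dropping MUT_CTCF replicate 1 or 2 gave -0.37 or -0.32.

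Pax6 (ENSMUSG00000027168, mm9 chromosome 2, 105509053 to 105543317, plus strand) encodes a paired-box transcription factor of the eye and forebrain. It had 5 and 16 counts in WT_CTCF and 19 and 10 in MUT_CTCF. The groups overlapped. The log2 fold change of 0.45 (SE 0.768, adjusted p = 0.857 by edgeR's quasi-likelihood test) ran to 1.51 and 0.83 when replicate 2 of WT_CTCF or of MUT_CTCF was left out, and to -0.15 and -0.07 when replicate 1 of WT_CTCF or of MUT_CTCF was left out. Its exons share 5542 bases with Elp4 on the other strand. The strand setting of the counting was not given in the sources used here, so whether reads there were counted for Pax6 is not known. If they were left out, its level per length is too low.

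Pax3 (ENSMUSG00000004872, mm9 chromosome 1, 78097842 to 78193709, minus strand) encodes a paired-box factor of the dorsal neural tube and neural crest, and is an ectodermic marker in the study. It had 0 and 1 counts in WT_CTCF and 2 and 4 in MUT_CTCF. The MUT_CTCF libraries were both above the WT_CTCF libraries, at counts near the floor. The summed counts of 1 and 6 gave a MUT_CTCF over WT_CTCF ratio of 6.03 with a 95% exact counting interval of 0.731 to 277, which includes equality. Fgf5, a growth factor gene and the other ectodermic marker of the study, had 0 counts in all 4 libraries, which allows up to 0.0740 CPM in a library.

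Neurod1 (ENSMUSG00000034701, mm9 chromosome 2, 79292678 to 79296908, minus strand) encodes a bHLH transcription factor of neuronal differentiation. Its counts were 36 and 24 in WT_CTCF and 30 and 16 in MUT_CTCF. The groups overlapped, with MUT_CTCF replicate 2 lowest. The log2 fold change was -0.39 (SE 0.560, adjusted p = 0.824 by edgeR's quasi-likelihood test), and dropping MUT_CTCF replicate 1 gave -0.90 and dropping MUT_CTCF replicate 2 gave -0.02, while dropping WT_CTCF replicate 1 or replicate 2 gave -0.07 or -0.65. It shares 355 bases of exon with neighbouring annotated genes, Cerkl on the same strand and Gm17325 on the other.

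Pou3f2 (ENSMUSG00000052621, mm9 chromosome 4, 22413791 to 22415480, minus strand, 1 exon) encodes BRN2, a POU-domain factor of neural progenitors and neurons. It had 10 and 6 counts in WT_CTCF and 0 and 5 in MUT_CTCF. Both MUT_CTCF libraries lay below both WT_CTCF libraries, by as little as 1 count. The summed counts of 16 and 5 gave a ratio of 0.314 with a 95% exact counting interval of 0.0899 to 0.897. That interval covers counting error only, not the spread between libraries, and no p-value is given for a gene below the filter.

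**Figure D2:**
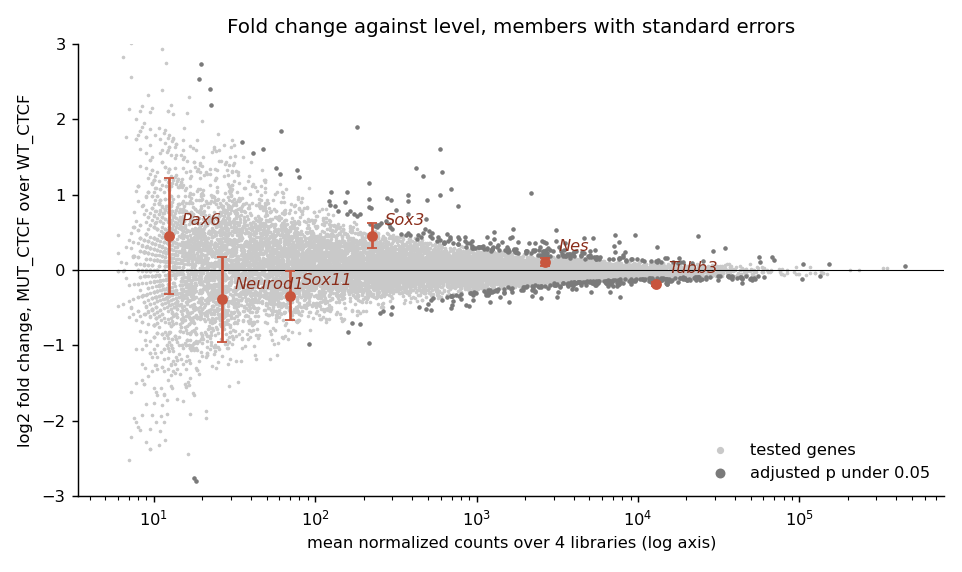
Log2 fold change of MUT_CTCF over WT_CTCF (vertical axis) against the mean normalized count over 4 libraries (horizontal axis, log scale) for the tested genes (light grey, with genes at an adjusted p under 0.05 in dark grey) and the 6 tested members (red, bars are ± 1 SE). The vertical axis ends at -3 and 3, which leaves 5 tested genes outside, and the bars are widest for Pax6 and Neurod1 and too short to see for Tubb3.

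How small a change could be detected differed by level. Among genes with a mean under 30 counts, as for Pax6 and Neurod1, the median SE was 0.689 on the log2 scale and 0.330% were called. Sox11 belonged to the genes at 30 to 100 counts, with a median SE of 0.369 and 0.40% called, and Sox3 to those at 100 to 1000, with 0.137 and 2.26%. Nes belonged to the genes at 1000 to 10000 counts, with a median SE of 0.0576 and 4.77% called, and Tubb3 to those above, with 0.0295 and 14.1%. Differences of the low members were therefore not detectable at this depth unless large, and a missed threshold does not show equal levels.

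The levels of the 8 genes, in CPM per kilobase of exon, spanned several orders of magnitude. Tubb3 had the highest level, 179.6 ± 0.83 in WT_CTCF and 159.2 ± 1.85 in MUT_CTCF (SD, n = 2 each), above 98.0% of tested genes. Nes followed at 9.79 ± 0.066 and 10.6 ± 0.14, and Sox3 at 2.25 ± 0.0060 and 3.12 ± 0.030. Over all 4 libraries the mean level was 0.846 for Sox11, 0.238 for Neurod1, 0.0761 for Pou3f2, 0.0154 for Pax6 and 0.00695 for Pax3. The ranges of Tubb3, Nes, Sox3, Sox11 and Neurod1 over the 4 libraries did not overlap with those of their neighbours. Those of Neurod1 (0.145 to 0.322) and Pou3f2 (0 to 0.144) nearly met, and those of Pou3f2, Pax6 (0.00615 to 0.0234) and Pax3 (0 to 0.0160) overlapped, so the lowest 3 have no firm order. Pax6 has many annotated exons, and with its longest transcript as the length its mean was 0.0365.

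**Figure D3:**
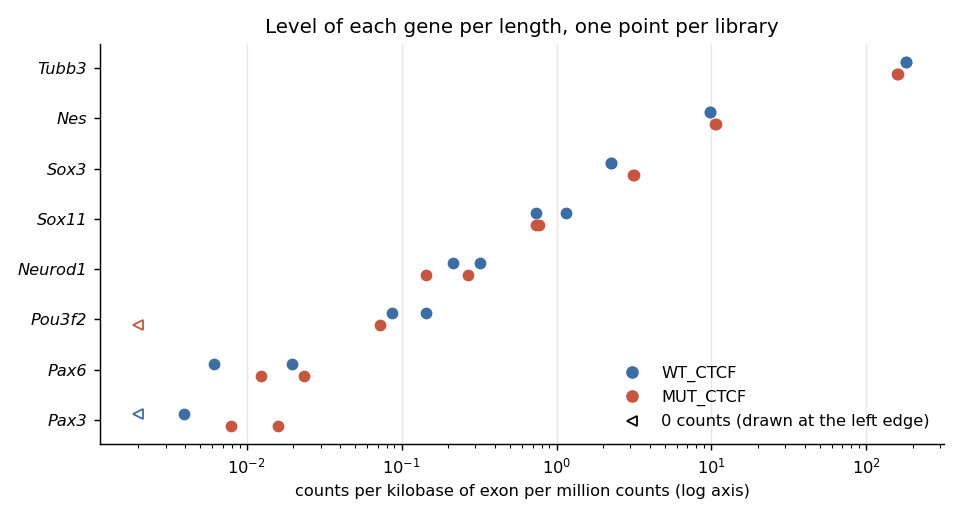
Level of each matched gene in CPM per kilobase of exon (horizontal axis, log scale) in WT_CTCF (blue) and MUT_CTCF (red) libraries, a point per library, with 0 counts drawn as an open triangle at the left edge. Tubb3 lies between 157.9 and 180.2 and the 3 lowest genes overlap below 0.15.

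Other genes of the lineage were taken from lists by role. Over 104 tested genes of 153 listed, members left out, 3 were called higher and 4 lower, and the median log2 fold change was 0.04. That is 6.73% called where 3.17% of all tested genes were. Among all tested genes the share called rose with level, from 0.330% under 30 counts to 14.1% from 10000. The listed genes were not compared with genes of like level. At an unadjusted p under 0.05 in edgeR's quasi-likelihood test, 12 were higher and 6 lower, against 7.61% and 7.65% of all tested genes. The genes called higher were Sox2, Msi1 and Sox12, and those called lower were Uchl1, Tubb4b, Ngfr and Krt8. The largest of these changes on the log2 scale was that of Krt8, -0.30. By the same edgeR test, all 7 lost the call without either MUT_CTCF library (adjusted p 0.310 to 0.421 without replicate 1 and 0.239 to 0.521 without replicate 2) and without WT_CTCF replicate 1 (0.050 to 0.359), and Sox2, Msi1, Ngfr and Krt8 lost it without WT_CTCF replicate 2 (0.0551 to 0.299).

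Among neural progenitor regulators, 20 of 33 were tested, 2 were higher, 0 were lower and the median log2 fold change was 0.15. Sox2, the SOXB1 factor shared by neural progenitors and pluripotent cells, had 20959 and 20711 counts in WT_CTCF and 22315 and 22368 in MUT_CTCF, and rose by 0.10 (SE 0.027, adjusted p = 0.0358 by edgeR's quasi-likelihood test). Msi1, an RNA-binding protein of neural stem cells, had 1386 and 1487 counts in WT_CTCF and 1731 and 1689 in MUT_CTCF, and rose by 0.25 (SE 0.070, adjusted p = 0.0334 in that test). In both genes the MUT_CTCF libraries were above the WT_CTCF libraries, an order that 22.3% of all tested genes had. DESeq2 called neither (adjusted p = 0.0514 for Sox2 and 0.130 for Msi1). By edgeR's exact test Msi1 was called (adjusted p = 0.0207) and Sox2 was not (adjusted p = 0.104). Hes1, a Notch target that holds progenitors undifferentiated, followed Sox2 in level and gave 0.04 (adjusted p = 0.781 by edgeR's test). The list's median dropped to 0.02 when WT_CTCF replicate 1 was left out, and to 0.10 or 0.04 when MUT_CTCF replicate 1 or 2 was.

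Of 8 relatives of the SOX and POU members, 5 were tested, and Sox2 and Sox12 were higher, with a median of 0.10 (0.15 with WT_CTCF replicate 2 or MUT_CTCF replicate 1 left out). Sox12, a SOXC factor like SOX11, had 1774 and 1913 counts in WT_CTCF and 2083 and 2316 in MUT_CTCF, all MUT_CTCF above WT_CTCF, and rose by 0.25 (SE 0.065, adjusted p = 0.0183 by edgeR's quasi-likelihood test). DESeq2 did not call it (adjusted p = 0.108), and its value was 0.16 with MUT_CTCF replicate 2 left out. In the PAX family, 2 of 7 other genes were tested and none was called or had an unadjusted p under 0.05. Pax2, a kidney and midbrain factor, gave 0.55 (SE 0.335) and Pax8, a thyroid and kidney factor, 0.33 (SE 0.702).

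Among proneural and neuronal transcription factors, 11 of 27 were tested and none was called by edgeR's quasi-likelihood test, DESeq2 or edgeR's exact test. At an unadjusted p under 0.05 there were 0 higher and 1 lower, Pou4f1, named here after its value was seen, against 7.61% and 7.65% of all tested genes. The most abundant were Rest, the repressor of neuronal genes in other cells, at -0.07 (SE 0.037), and Tlx3, a sensory neuron factor, at -0.07 (SE 0.157). The median was -0.07, and leaving out MUT_CTCF replicate 1 or 2 turned it to 0.08 or 0.06, and leaving out WT_CTCF replicate 2 gave -0.0042.

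Of 32 neuronal cytoskeleton, adhesion and synapse genes, 28 were tested, 0 were higher and 1 was lower, with a median of 0.07 (0.04 with MUT_CTCF replicate 1 left out). Uchl1, a ubiquitin hydrolase abundant in neurons, had 7178 and 6841 counts in WT_CTCF and 6039 and 6086 in MUT_CTCF. Its MUT_CTCF libraries were both below, and it fell by 0.21 on the log2 scale (SE 0.039, adjusted p = 0.000244 by edgeR's quasi-likelihood test), with exons shared with the antisense gene Gm16832. Stmn2, a tubulin-binding protein of growing axons and the next in level, gave -0.05 (SE 0.035, adjusted p = 0.594 in that test). Of 7 other beta tubulins, 6 were tested and Tubb4b fell, with 54480 and 53545 counts in WT_CTCF and 50584 and 50617 in MUT_CTCF. Its log2 fold change was -0.10 (SE 0.022, adjusted p = 0.0042 by edgeR's quasi-likelihood test), and edgeR's exact test did not call it (adjusted p = 0.0522). It shares exon bases with Fam166a on the other strand. Tubb5, the most abundant, gave -0.02 (SE 0.018), and the median of this family was 0.0019, or -0.04 with WT_CTCF replicate 2 left out and -0.01 and -0.02 with MUT_CTCF replicate 1 or 2 left out. Beta tubulins are close in sequence and the authors counted uniquely mapped reads, so reads that aligned equally well to several of them were left out.

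All 13 intermediate filament genes other than Nes were tested, and none was called by edgeR's quasi-likelihood test, DESeq2 or edgeR's exact test. An unadjusted p under 0.05 gave 2 higher and 1 lower, against 7.61% and 7.65% of all tested genes. Lmnb1, a nuclear lamin, gave -0.01 (SE 0.026) and Vim, the filament that partners nestin, -0.05 (SE 0.033), and the median was 0.03, or -0.01 with WT_CTCF replicate 1 left out and -0.0033 with MUT_CTCF replicate 1 left out.

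Of 26 surface ectoderm and neural crest genes, 20 were tested, with 0 higher, 2 lower and a median of 0.07, or -0.05 with WT_CTCF replicate 2 left out and 0.04 with MUT_CTCF replicate 2 left out. Ngfr, a neurotrophin receptor of the neural crest, had 3877 and 3824 counts in WT_CTCF and 3364 and 3457 in MUT_CTCF, and fell by 0.18 on the log2 scale (SE 0.049, adjusted p = 0.0242 by edgeR's quasi-likelihood test). Krt8, a keratin of simple epithelia, had 1102 and 1089 counts in WT_CTCF and 878 and 905 in MUT_CTCF, and fell by 0.30 (SE 0.085, adjusted p = 0.0319 in that test). In both, the MUT_CTCF libraries were below without overlap, and DESeq2 called neither (adjusted p = 0.0729 for Ngfr and 0.122 for Krt8). Scaling by library size only also lost Krt8 (adjusted p = 0.0509 by edgeR's test). Trp63, the p63 factor of the epidermis, met only the study's rule, with 10 and 24 counts in WT_CTCF, 36 and 54 in MUT_CTCF and a log2 fold change of 1.39 (SE 0.542, adjusted p = 0.171 by edgeR's test). Its value was 0.90 with WT_CTCF replicate 1 left out, which is under the 2-fold limit of that rule, and 2.15 with WT_CTCF replicate 2 left out. Foxd3, the most abundant gene of the list and also a factor of pluripotent cells, gave -0.08 (SE 0.058).

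Of 11 glial genes, 8 were tested and none was called by edgeR's quasi-likelihood test, DESeq2 or edgeR's exact test, while an unadjusted p under 0.05 gave 2 higher and 0 lower, against 7.61% and 7.65% of all tested genes. The median of 0.34 became -0.09 when MUT_CTCF replicate 1 was left out and 0.68 when replicate 2 was. Slc1a2, a glutamate transporter of astrocytes, met the study's rule with 24 and 7 counts in WT_CTCF, 89 in MUT_CTCF replicate 1 and 0 in MUT_CTCF replicate 2. Its log2 fold change of 1.5 (SE 0.718, adjusted p = 0.307 by edgeR's quasi-likelihood test) became -6.96 without MUT_CTCF replicate 1, a value fitted against a library at 0 counts. Cnp, a myelin enzyme, gave -0.01 (SE 0.060) and Aldh1l1, a folate enzyme of astrocytes, 0.03 (SE 0.077).

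**Figure D4:**
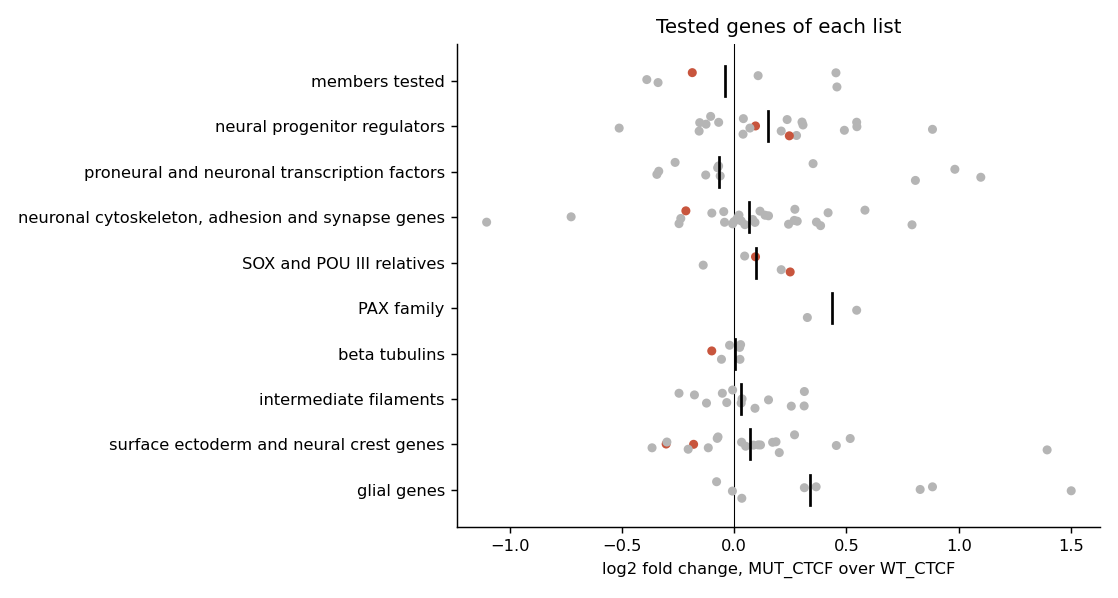
Log2 fold change of MUT_CTCF over WT_CTCF (horizontal axis) of each tested gene by list (rows), with genes at an adjusted p under 0.05 in red, others in grey, and the list's median as a black bar; vertical scatter within a row has no meaning. Medians run from -0.07 to 0.44, the last over the 2 tested PAX genes, and the red points lie between -0.30 and 0.25.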

How the data were processed

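RNA-seq counts came from 2 WT_CTCF and 2 MUT_CTCF libraries, described in the methods as biological replicates of each line. The authors trimmed reads with Trim Galore 0.4.4, used STAR for alignment to mm9, and deposited counts of uniquely mapped reads per gene from HTSeq 0.9.1, without normalization. Strand and annotation release are not given in the sources used here. A table of the authors' own edgeR comparison (fold changes, mean levels, p-values and false discovery rates) was also deposited and was not used.

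Genes were named from GENCODE M1 on the same build, which named 37205 of 37620 identifiers, and rows it left unnamed held 0.0394% of counts. Genes passing edgeR's filterByExpr (minimum 10) were scaled by TMM and tested with glmQLFit and glmQLFTest in edgeR 4.0.16 (R 4.3.3), and p-values were adjusted over the 16264 tested genes (Benjamini-Hochberg), which held 99.96% of counts. An exact permutation test of 2 against 2 libraries cannot go below p = 0.333 and was not used. SE is the log2 fold change divided by the root of F. Normalized counts are scaled to the mean library, and levels divide counts by exon length and library total. Counting intervals are 95%, exact Poisson or conditional binomial, and cover counting error only, as does the 3-count floor. The scripts were tested on simulated data. Other settings tried were edgeR's exact test, DESeq2 1.42.0, different scalings and filters, the replicate number as a block, and leaving out a library at a time. When a library was left out, the lone library of its line was assumed to vary like the other line.

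Members were chosen by name, and members, lists and tests were chosen with earlier results of these data known. Named genes are all members and, from each list, those with an adjusted p under 0.05, those meeting the study's rule and the 2 tested genes with the highest level. Promoter sequences came from RefSeq, and the motif letters were chosen in the course of the analysis.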

Additional observations from a re-analysis of the deposited data

How the results depend on the processing

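Of the 6 tested members, Tubb3, Nes, Sox3 and Neurod1 kept their direction in every alternative, and no member other than Tubb3 passed in any. Over the libraries left out Pax6 ran from -0.15 to 1.51, reversed without WT_CTCF replicate 1 (-0.15) and MUT_CTCF replicate 1 (-0.07), and Sox11 from -0.62 to 0.0065, reversed when WT_CTCF replicate 2 was dropped. The Tubb3 call was lost, leaving 0 lower members, with no filter on low counts and by the study's rule, and over the libraries left out the count ran from 0 to 1. With no filter, which tested 23739 genes, 26 genes were higher and 3 lower, and 0 listed genes were called in either direction. DESeq2 gave 131 higher and 114 lower, with 0 and 2 listed genes, and scaling by library size only gave 152 lower. The study's rule gave 154 higher and 58 lower, with 0 listed genes lower. Leaving out a library gave 6 to 142 higher and 0 to 102 lower (6 and 0 without either MUT_CTCF library), and 0 to 1 listed genes higher and 0 to 2 lower. The length of the longest transcript moved the mean level of Pax6 to 0.0365. Slc1a2 ran from -6.96, reversed, without MUT_CTCF replicate 1 to 2.63 without WT_CTCF replicate 1. The causes of these differences between settings were not tested. Same-numbered replicates did not deviate together across all tested genes (r = -0.0192 across 16264 genes). Many of these genes have low counts with large counting error, so this value cannot exclude a pairing that affects part of the genes. A replicate block gave 326 higher and 372 lower genes, where the main fit gave 253 and 262. With the block, 0 members were higher and 1 was lower. Pax6 has no value at 10 counts in every library. With 2 libraries per line, spread is estimated mostly from genes of like level, and Pax3 and Pou3f2 are limited by depth.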

Other observations

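Markers of the other germ layers were present at low level in both lines. Of 12 mesendoderm markers, 10 were tested and none was called by edgeR's quasi-likelihood test, DESeq2 or edgeR's exact test, with 2 higher and 0 lower at an unadjusted p under 0.05 (7.61% and 7.65% of all tested genes), and their summed level was 24.3 to 25.8 CPM per kilobase of exon in the 4 libraries. Of 12 fibroblast markers, 7 were tested and 1 was higher, Fbln2, an extracellular matrix gene named after its value was seen, with 147 and 126 counts in WT_CTCF and 193 and 258 in MUT_CTCF. By the study's rule 1 of these markers was lower, the collagen gene Col3a1, with 26 and 23 counts in WT_CTCF, 12 and 5 in MUT_CTCF and a log2 fold change of -1.52 (SE 0.705, adjusted p = 0.288 by edgeR's quasi-likelihood test). Of 8 markers of differentiated neurons, 7 were tested and none was called by those 3 tests, also at an unadjusted p under 0.05. Their median log2 fold change of 0.28 became -0.27 when MUT_CTCF replicate 1 was left out and 0.80 when replicate 2 was. Syp, a synaptic vesicle protein named after its value was seen, had 31 and 43 counts in WT_CTCF, 43 in MUT_CTCF replicate 1 and 2 in MUT_CTCF replicate 2, and what sets the MUT_CTCF replicates apart in these genes was not tested.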
